A study of Mus musculus with 4 samples.

Results

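The nuclear genes of respiratory complexes II to V and cytochrome c were examined in mouse colon group 2 innate lymphoid cells (ILC2s), lymphocytes without antigen receptors that secrete type 2 cytokines. Members were chosen by gene symbol alone: the succinate dehydrogenase genes Sdha to Sdhd, every protein-coding gene whose symbol begins with Uqcr, Cox4 to Cox8 or Atp5, and Cyc1 and Cycs. This gave 50 gene IDs with 49 symbols among 55487 IDs in the deposited count table, spread over 19 chromosomes. There were 4 IDs for complex II, 9 for complex III, 1 for cytochrome c, 18 for complex IV and 18 for complex V. The cells had been sorted from the gut and kept in culture with IL-33, IL-25, IL-7 and IL-2, cytokines that sustain and activate ILC2s. In 2 libraries FK866, a small-molecule inhibitor of nicotinamide phosphoribosyltransferase (NAMPT), was present for 16 h (FK866), and 2 libraries came from cells without it (Control). The labels give no strain, sex or age for either group, and no dose of FK866. No label says whether replicates came from separate animals or cultures, so the p-values cover no more than library-to-library spread, possibly of technical origin.

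NAMPT catalyses the slow step by which cells rebuild NAD+ from nicotinamide; NAD+ is the electron acceptor whose reduced form feeds the respiratory chain at complex I. Complex II (succinate dehydrogenase) passes electrons from succinate to ubiquinone, and complex III (the cytochrome bc1 complex) passes them from ubiquinol to cytochrome c. Complex IV (cytochrome c oxidase) hands them to oxygen, and complex V (ATP synthase) uses the proton gradient built by complexes I, III and IV to make ATP. Complex II is encoded by nuclear genes alone, whereas complexes III, IV and V also hold subunits encoded in the mitochondrial genome.

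Library totals ran from 27617750 to 32241615 counts in FK866 and from 32540325 to 37841233 in Control. At a minimum of 10 counts, 22461 gene IDs were detected in FK866 replicate 2, 17152 in FK866 replicate 1 and 17563 to 18667 in Control. All 11 ILC2 markers examined passed the filter on low counts, and their summed level was 4342 to 5273 CPM (a count scaled to library size) in FK866 and 4480 to 4866 CPM in Control. Within that sum Rora was called higher (log2 1.70, edgeR adjusted p = 0.000457) and Il13 lower (log2 -1.49, edgeR adjusted p = 0.0118). Of the 11 markers, 6 lay below Control without overlap and 2, Rora and Il7r, above it. Gata3, Il2ra, Klrg1 and Il17rb were among those below and did not pass. Il7r did not pass either (log2 0.64, edgeR adjusted p = 0.132). Of 10 marker lists of other cell types, those of B cells and of epithelium differed between the groups without overlap in the direction of the respiratory genes. The 4 B-cell markers summed to 19.2 to 25.2 CPM in FK866 and 31.6 to 34.8 CPM in Control, and the 5 epithelial markers to 27.0 to 39.3 CPM and 42.1 to 55.2 CPM. The lists of T cells and of myeloid cells differed without overlap in the other direction. T-cell markers summed to 20.64 to 21.17 CPM in FK866 and 19.76 to 19.85 CPM in Control. Myeloid markers summed to 4.26 to 5.08 CPM in FK866 and 1.32 to 2.67 CPM in Control. The list with the largest sum was that of group 3 innate lymphoid cells (ILC3s), whose groups overlapped. Its 5 markers summed to 87.4 to 230 CPM in FK866 and 160 to 274 CPM in Control. Il22 made up most of this, with 214 and 75.0 CPM in FK866 and 265 and 147 CPM in Control. Il23r of that list was called higher (log2 2.05, edgeR adjusted p = 0.0172). Of the epithelial markers, Krt8 was at 0 in every library. The part of these cell types in the results below was not tested. Nampt itself had 64.6 and 60.9 CPM in FK866 and 71.0 and 78.0 CPM in Control, and was not called (log2 -0.25 ± 0.14, SE, edgeR adjusted p = 0.301).

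Of 46 members that passed the filter on low counts, 10 were called lower in FK866 at an edgeR adjusted p under 0.05 (quasi-likelihood test over all 19194 genes tested), against a background of 7.89% of all tested genes called lower and 5.31% called higher. They were Sdhb of complex II, Uqcr11, Uqcr10 and Uqcrc1 of complex III, cytochrome c (Cycs), Cox7a2 of complex IV, and Atp5k, Atp5j, Atp5j2 and Atp5mpl of complex V. The median log2 fold change of the 46 was -0.37, beside 0.03 for all tested genes. A negative fold change was found for 39 of the 46, against 48.5% of all tested genes, and for 35 both FK866 libraries lay below both Control libraries, against 29.3%. No member was called higher by edgeR or DESeq2, and 0 had a positive fold change with an unadjusted p under 0.05. These are bulk libraries, so fewer cells of a type and less RNA per cell cannot be told apart.

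The share of genes called lower was larger among abundant genes, to which most members belong. Among 41 members whose mean log2 CPM was 3 or more, 10 were called, against 15.3% of the 8632 genes at that level. In the same comparison 37 of 41 fold changes were negative, against 56.1%, and 33 had groups that did not overlap with FK866 below, against 40.6%. The median log2 fold change was -0.37 for these 41 members and -0.08 for all genes at that level. The number called rested strongly on single libraries: it was 1 without FK866 replicate 2 (background 3.96%), 9 without FK866 replicate 1 (7.81%), 29 without Control replicate 1 (10.5%) and 11 without Control replicate 2 (9%). The median fold change of the members lay between -0.53 and -0.31 in these 4 fits. Under other scalings the number called was 8 with RLE (background 6.72%), 9 with library totals (7.61%), 10 with the upper quartile (8.05%) and 15 with full library totals before TMM (9.16%). It was 5 with no filter (3.31%), 11 with a stricter filter (15.9%) and 16 with DESeq2 (16.6%).

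**Figure D1:**
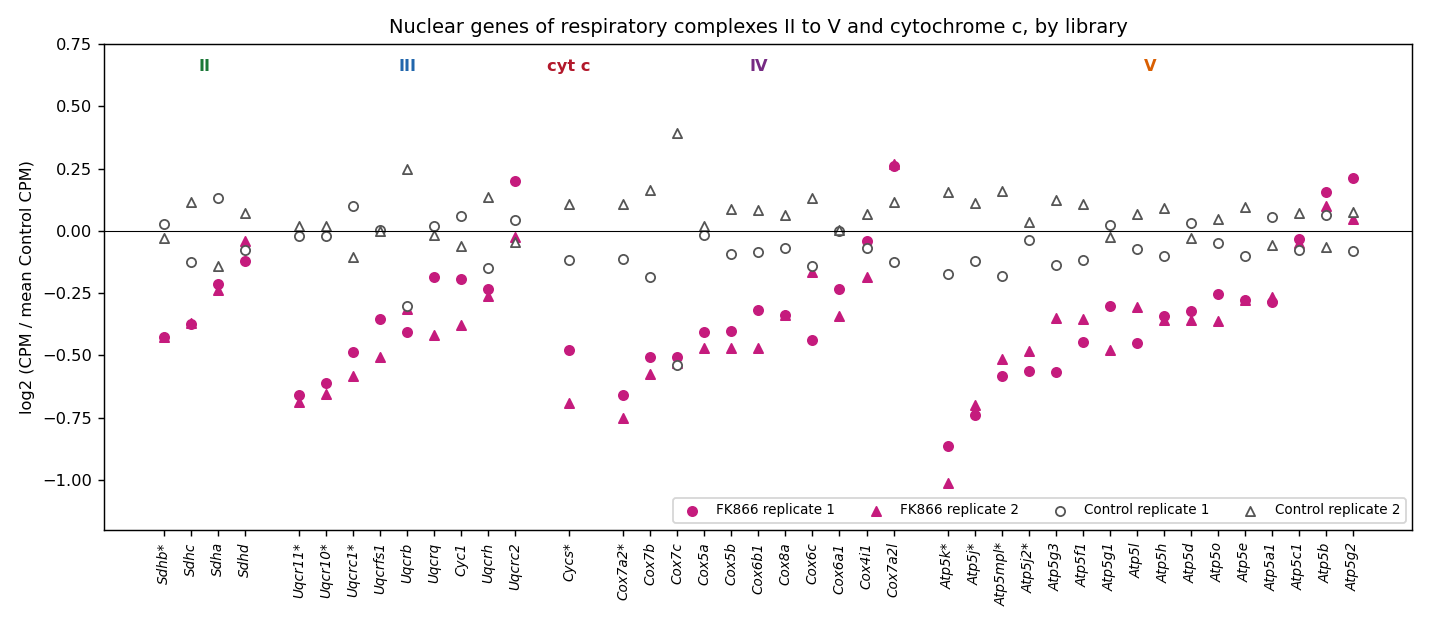
Level of each of the 41 members whose mean log2 CPM was 3 or more in every library, as log2 of its CPM over the mean Control CPM. Points are libraries (filled, FK866; open, Control; circles, replicate 1; triangles, replicate 2), genes are grouped by complex, and an asterisk marks the 10 genes with an edgeR adjusted p under 0.05. The FK866 points lie below both Control points for 33 genes and above both for Cox7a2l and Atp5b.

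In complex II, the iron-sulfur subunit gene Sdhb (mm10 chromosome 4, 140961203 to 140979193) was called lower. It had 308 and 308 CPM in FK866 and 422 and 406 CPM in Control, so the 2 groups lay far apart relative to their spread. Its log2 fold change was -0.43 ± 0.12 (SE, edgeR adjusted p = 0.0485). Sdha, the flavoprotein that oxidises succinate, had 393 and 386 CPM in FK866 and 499 and 413 CPM in Control. Its groups did not overlap, but the spread of the Control libraries was wide and it did not pass (log2 -0.23 ± 0.13, SE, edgeR adjusted p = 0.318). Of the membrane anchors that hold the heme and bind ubiquinone, Sdhc was at -0.37 (edgeR adjusted p = 0.122) and Sdhd at -0.08 (edgeR adjusted p = 0.744), and for Sdhd the groups overlapped. The call of Sdhb was lost without FK866 replicate 1 and without FK866 replicate 2.

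In complex III, 3 of 9 genes were called lower (15.3% of abundant genes were), and 8 of 9 had both FK866 libraries below both Control libraries (40.6% of abundant genes). Among those called were Uqcr11 and Uqcr10, which encode small accessory subunits. Uqcr11 had 139.8 and 137 CPM in FK866 and 218 and 224 CPM in Control. Each group was tight, and the log2 fold change was -0.67 ± 0.12 (SE, edgeR adjusted p = 0.0111). Uqcr10 had 94.6 and 91.7 CPM in FK866 and 142 and 146 CPM in Control (log2 -0.63 ± 0.13, SE, edgeR adjusted p = 0.0155). The core protein gene Uqcrc1, the third called, had 390.4 and 365 CPM in FK866 and 585 and 508 CPM in Control (log2 -0.53 ± 0.13, SE, edgeR adjusted p = 0.0292). None of these 3 calls held without FK866 replicate 2.

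The subunits of complex III that carry electrons did not pass. The Rieske iron-sulfur protein gene Uqcrfs1 had 160.4 and 144 CPM in FK866 and 205 and 204 CPM in Control, separate groups with a log2 fold change of -0.43 ± 0.13 (SE, edgeR adjusted p = 0.0625). Cytochrome c1 (Cyc1) had 352 and 309.8 CPM in FK866 and 418 and 386 CPM in Control (log2 -0.28 ± 0.13, SE, edgeR adjusted p = 0.195). The second core protein gene, Uqcrc2, was the 1 gene of the complex with a positive fold change, with 295 and 252 CPM in FK866 and 264 and 249 CPM in Control. Its groups overlapped (log2 0.09 ± 0.13, SE, edgeR adjusted p = 0.722), and the sign turned to -0.12 without FK866 replicate 1. The other accessory genes, Uqcrb (-0.36), Uqcrq (-0.30) and Uqcrh (-0.25), had separate groups and did not pass. For Uqcrc2, 19.7% of the exon bases overlap the neighbouring gene Pdzd9, and the library kits named in the labels do not mark the strand.

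Cycs, which encodes the soluble carrier between complexes III and IV that also triggers apoptosis when it leaks into the cytosol, fell. It had 388 and 335 CPM in FK866 and 499 and 583 CPM in Control. The groups did not overlap, and the log2 fold change was -0.58 ± 0.14 (SE, edgeR adjusted p = 0.0277), with a range of -0.79 to -0.46 as each library was left out. The call was lost without FK866 replicate 2. Near-identical copies of Cycs elsewhere in the genome held counts equal to 2.29% of its own, so a small share of its reads may have been placed on them.

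In complex IV, 1 of 15 tested genes was called lower, a share of 6.67% that is no larger than the 7.89% of all tested genes. All 10 genes of the common subunits had a negative fold change (56.1% of abundant genes did), with a median of -0.41, and 8 had both FK866 libraries below both Control libraries (40.6% of abundant genes). Cox7a2, the form of subunit VIIa used outside striated muscle, had 119 and 111 CPM in FK866 and 173 and 202 CPM in Control (log2 -0.71 ± 0.14, SE, edgeR adjusted p = 0.0136). It was not called without FK866 replicate 2. Cox7b (log2 -0.54, edgeR adjusted p = 0.0511), Cox5a (-0.44, 0.0620) and Cox5b (-0.44, 0.0640) did not pass, nor did Cox8a (-0.34), Cox6c (-0.30) and Cox6a1 (-0.29). The most abundant complex IV gene, Cox4i1, which encodes a subunit that assembles early with the mitochondrially encoded core, had 407 and 369 CPM in FK866 and 399.9 and 439 CPM in Control. Its groups overlapped (log2 -0.11 ± 0.13, SE, edgeR adjusted p = 0.628). Cox6b1, the next in abundance, had 279 and 251 CPM in FK866 and 327 and 368 CPM in Control, groups that were separate without a call (log2 -0.39 ± 0.13, SE, edgeR adjusted p = 0.0860).

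Cox7c, a small common subunit, depended on a single library. It had 77.8 and 76.4 CPM in FK866 and 76.1 and 145 CPM in Control. Control replicate 1 stood at the FK866 level, the log2 fold change of -0.52 ± 0.26 (SE) did not pass (edgeR adjusted p = 0.231), and it became 0.02 without Control replicate 2. Cox7a2l, a relative of Cox7a2 whose product joins complexes III and IV into supercomplexes, was the 1 abundant complex IV gene of the nucleus with a positive fold change, with 105 and 106 CPM in FK866 and 80.3 and 94.97 CPM in Control. Its FK866 libraries were both above Control, but the difference did not pass (log2 0.26 ± 0.14, SE, edgeR adjusted p = 0.271).

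The alternative isoforms of complex IV, which replace common subunits in muscle, lung or testis, were close to absent. Cox4i2, Cox6a2, Cox6b2 and Cox7a1 passed the filter with between 0 and 46 counts in any library, and Cox7b2, Cox8b and Cox8c did not pass it, with 0 to 11 counts. Per kilobase of transcript, Cox4i1 stood at 507 CPM in FK866 and 548 CPM in Control, against 0.599 and 0.474 CPM for its alternative Cox4i2. None of the 4 tested isoforms passed, the most precise being Cox6b2 with 14 and 24 counts in FK866 and 46 and 43 counts in Control (log2 -1.07 ± 0.62, SE, edgeR adjusted p = 0.308).

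In complex V, 4 of 17 tested genes were called lower (7.89% of all tested genes and 15.3% of abundant ones were), and 14 had both FK866 libraries below both Control libraries (29.3% and 40.6%). The calls fell in the small membrane subunits that shape the enzyme into dimers along the cristae, where 3 of 4 were called, and in the peripheral stalk, where 1 of 4 was. Atp5k, which encodes the membrane subunit e, had 25.7 and 23.2 CPM in FK866 and 41.5 and 52.1 CPM in Control. This was the largest fold change among the 41 abundant members (log2 -0.94 ± 0.18, SE, edgeR adjusted p = 0.0134). Atp5j, coupling factor 6 of the peripheral stalk, had 137 and 141 CPM in FK866 and 209.9 and 247 CPM in Control (log2 -0.72 ± 0.14, SE, edgeR adjusted p = 0.0121). It was the only one of the 10 called members to keep its call without FK866 replicate 2. Atp5j2, which encodes subunit f, had 123 and 131 CPM in FK866 and 178 and 187 CPM in Control (log2 -0.52 ± 0.13, SE, edgeR adjusted p = 0.0302), a call also lost without FK866 replicate 1. Atp5mpl, a small proteolipid gene, had 77.5 and 81.2 CPM in FK866 and 102 and 129.7 CPM in Control. Its call was marginal (log2 -0.55 ± 0.15, SE, edgeR adjusted p = 0.0498) and held in 4 of 13 alternative fits, not without FK866 replicate 1, FK866 replicate 2 or Control replicate 2. Usmg5, a further small membrane subunit that the symbol rule leaves out because it carries an older name in this annotation, was at -0.53 ± 0.20 (SE) and did not pass (edgeR adjusted p = 0.120).

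Neither gene of the catalytic head of ATP synthase passed the test. Atp5b, which encodes the β subunit and was the most abundant member, had 3369 and 3236 CPM in FK866 and 3158 and 2889 CPM in Control. Both FK866 libraries were slightly higher, without passing (log2 0.13 ± 0.11, SE, edgeR adjusted p = 0.496). Its partner Atp5a1, the α subunit, had 1199 and 1218 CPM in FK866 and 1519 and 1407 CPM in Control, a difference in the other direction that did not pass either (log2 -0.28 ± 0.11, SE, edgeR adjusted p = 0.145). The γ subunit gene Atp5c1 of the rotating central stalk had overlapping groups, with 512 and 507 CPM in FK866 and 497 and 551 CPM in Control. The c ring, which carries protons through the membrane, is encoded by 3 genes that make the same mature protein. Of these, Atp5g3 was at -0.45 (edgeR adjusted p = 0.0707) and Atp5g1 at -0.39 (edgeR adjusted p = 0.0773), while Atp5g2 was at 0.13 (edgeR adjusted p = 0.589), a sign that turned without FK866 replicate 1 or without Control replicate 1 (-0.05 and -0.04). In the stalks, Atp5f1 (-0.40), Atp5h (-0.35), Atp5d (-0.34) and Atp5e (-0.28) had separate groups and did not pass, and the same held for the membrane subunit gene Atp5l (-0.38), whose near-identical copies held counts equal to 12.8% of its own. Of 2 IDs named Atp5o, the one whose exons lie wholly within other genes had 0 counts in every library. The other was at -0.31 ± 0.14 (SE, edgeR adjusted p = 0.207), with 47.9% of its exon bases shared with other annotated genes. Atp5s, a low-level factor that is no structural subunit, was at -0.76 ± 0.29 (SE, edgeR adjusted p = 0.127).

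**Figure D2:**
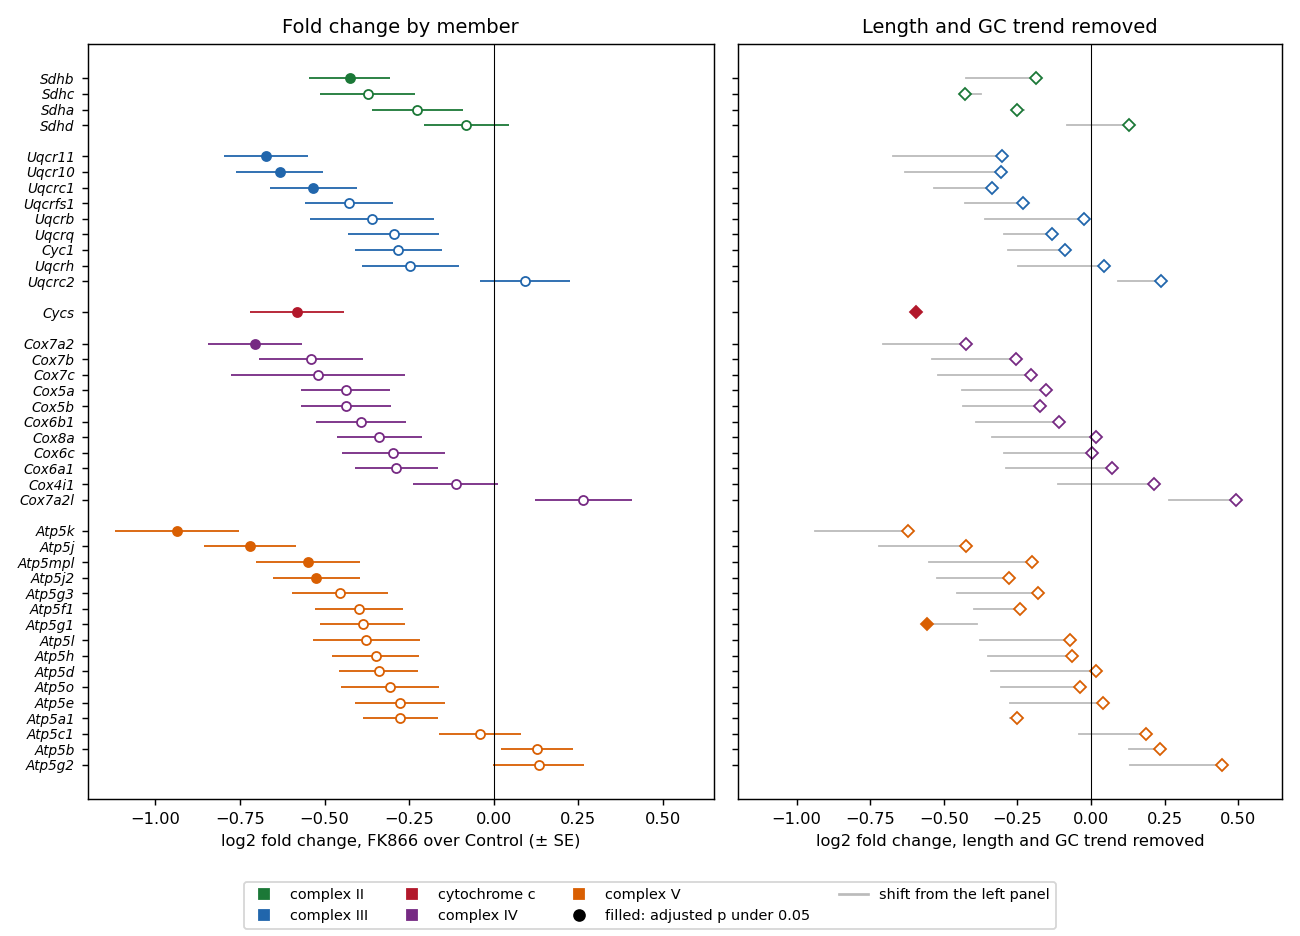
Left, log2 fold change (FK866 over Control) with its SE for each of the 41 members whose mean log2 CPM was 3 or more, from the edgeR fit over all genes, coloured by complex and ordered by size within it. Right, the same after removal of the trend with transcript length and GC content, with grey lines from the left value; filled symbols mark an adjusted p under 0.05, 10 on the left and 2 (Cycs and Atp5g1) on the right.

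Set side by side, the median log2 fold change was -0.30 for the 4 genes of complex II, -0.36 for the 9 of complex III, -0.34 for the 15 tested genes of complex IV and -0.38 for the 17 of complex V, and the differences between these medians were not tested. Summed over its genes, complex II had 1077 and 1087 CPM in FK866 and 1323 and 1273 CPM in Control, 16.6% lower on average. Complex III had 1879 and 1719.7 CPM in FK866 and 2327 and 2290 CPM in Control, 22.1% lower. Complex IV had 1993 and 1923 CPM in FK866 and 2283 and 2612 CPM in Control, with means of 1958 CPM in FK866 and 2447 CPM in Control. Complex V had 7569 and 7464 CPM in FK866 and 8299 and 8269.9 CPM in Control, 9.26% lower, a smaller difference that the level of Atp5b sets in part: without that gene its sum was 19.9% lower. The sums of the 2 groups did not overlap for any of the 4 complexes.

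The members are short transcripts, and in these libraries the fold change ran with transcript length. In 9282 protein-coding genes whose mean log2 CPM exceeded 2, Spearman's rho between fold change and length was 0.323, a description across genes that share their libraries. The tested members had a median length of 787 nt, against 2988 nt for those genes. A smooth trend was fitted over those genes and taken relative to their median fold change. At the length and GC content of the members it ran to a median log2 value of -0.28. The median of -0.37 seen for the members was not centred in this way. With that trend removed, the median of the members was -0.14 and 2 of the 46 were called lower, against a background of 6.4%. Over all tested genes the median was then 0.04. At a mean log2 CPM of 3 or more it was -0.15 for the 41 members and -0.08 for all 8632 genes. At that level 2 of the 41 members and 1080 of the 8632 genes were called lower. The medians became -0.22, -0.13, 0.0046 and -0.18 for complexes II, III, IV and V. The source of the trend was not tested.

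Cycs differed from the other called members here. Its annotated transcript of 3123 nt is long, the trend at that length was 0.01, and with the trend removed its fold change was -0.59 (edgeR adjusted p = 0.0297). The other gene then called, Atp5g1, was at -0.56 (edgeR adjusted p = 0.0262), but the annotated coding transcripts of Atp5g1 run from 596 to 4715 nt and the longest was used for it, so this value depends on that choice. Among the genes that lost their call, Atp5k (-0.62, edgeR adjusted p = 0.0633), Atp5j (-0.42, 0.0841) and Cox7a2 (-0.42, 0.0871) kept the largest falls, while Sdhb was at -0.19 (0.381).

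**Figure D3:**
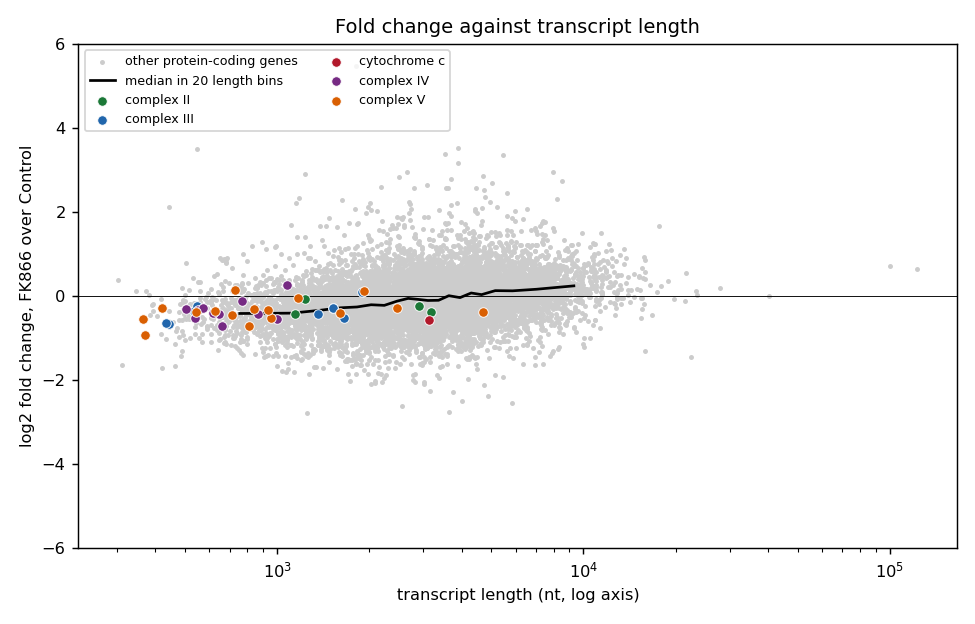
Log2 fold change (FK866 over Control) against transcript length on a log axis for 9282 protein-coding genes whose mean log2 CPM exceeded 2 (grey), their median in 20 bins of equal gene number (line) and the 41 abundant members (colours by complex). Most members lie at the short end, near the line; Cycs (red), at 3123 nt and -0.58, lies below it.

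Of 37 nuclear subunit genes of complex I, which shares the chain with these complexes, 10 were called lower (7.89% of all tested genes and 15.3% of abundant ones were) and 0 higher, with a median of -0.38. With the trend removed, 2 were called lower, against 6.4% of all tested genes, and the median was -0.10. Of the 8632 abundant genes, 1080 were then called lower, with a median of -0.08. Ndufa4, listed with complex I by name although its protein is now placed in complex IV, was at -0.43 ± 0.14 (SE, edgeR adjusted p = 0.0860). Of 6 mitochondrially encoded partners of complexes III, IV and V, 5 were tested, 0 were called lower and 1, mt-Co1, was called higher. Of the 5 fold changes, 4 were negative (48.5% of all tested genes were), with a median of -0.57. Levels of mt-Co2, mt-Co3 and mt-Atp6 were low, between 4.34 and 25.3 CPM in every library, so their values are less certain. The cytochrome b gene mt-Cytb had 609 and 746 CPM in FK866 and 807 and 1213 CPM in Control, groups that did not overlap and did not pass (log2 -0.57, edgeR adjusted p = 0.0865). mt-Co1, the catalytic core of complex IV, had 2386 and 2867 CPM in FK866 and 1474 and 1936 CPM in Control (log2 0.62, edgeR adjusted p = 0.0320). Its fold change ran from 0.34 to 0.83 as each library was left out, and the call was lost without FK866 replicate 2 and with no filter.

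Of 34 tested assembly factors and inhibitors of the complexes, 12 fell and 1 rose, beside 7.89% and 5.31% of all tested genes, with a median of -0.31. Among abundant genes, to which most of these factors belong, 15.3% were called lower. With the length and GC trend removed, 4 were called lower and 1 higher. In that fit 6.4% of all tested genes and 1080 of the 8632 abundant ones were called lower. For complex II, Sdhaf1, which protects the iron-sulfur clusters of Sdhb, had 6.60 and 7.26 CPM in FK866 and 14.6 and 16.5 CPM in Control. The groups were far apart (log2 -1.17, edgeR adjusted p = 0.0143), and the call held in all 13 alternative fits. Sdhaf4, which loads the flavoprotein, was at -1.14 (edgeR adjusted p = 0.0245), a call lost without FK866 replicate 1 and with the trend removed (adjusted p = 0.0787). For complex III, 3 of 6 fell, among them Lyrm7 (-1.16), which stabilises the Rieske protein and was not called without FK866 replicate 2. For complex V, 3 of 5 fell, including Atpif1, the inhibitor that stops the enzyme from running backwards (-0.90, edgeR adjusted p = 0.0147), and Tmem70 (-0.63), which helps to form the c ring. Both calls were lost without FK866 replicate 2 and with the trend removed (edgeR adjusted p = 0.0666 for Atpif1 and 0.0944 for Tmem70), and that of Tmem70 also without FK866 replicate 1.

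For complex IV, 4 of 19 tested factors fell and 1 rose. Surf1, needed for the early assembly of the core, had 18.7 and 17.5 CPM in FK866 and 33.5 and 35.4 CPM in Control (log2 -0.93, edgeR adjusted p = 0.0118), and was not called without FK866 replicate 2. Higd1a had 65.1 and 59.2 CPM in FK866 and 104 and 123 CPM in Control (log2 -0.87, edgeR adjusted p = 0.00809, called in all 13 alternative fits). The rise was that of Cox17, the copper chaperone that hands copper on to the oxidase: it had 16.0 and 11.2 CPM in FK866 and 4.40 and 4.69 CPM in Control. Both FK866 libraries were well above both Control libraries (log2 1.58 ± 0.28, SE, edgeR adjusted p = 0.00905), and this call too held in all 13 fits, with fold changes of 1.20 to 1.84. The receivers of that copper, Sco1 and Cox11, did not pass (0.32 and 0.47, edgeR adjusted p = 0.264 for both), and Sco2 was at or near 0 in every library.

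**Figure D4:**
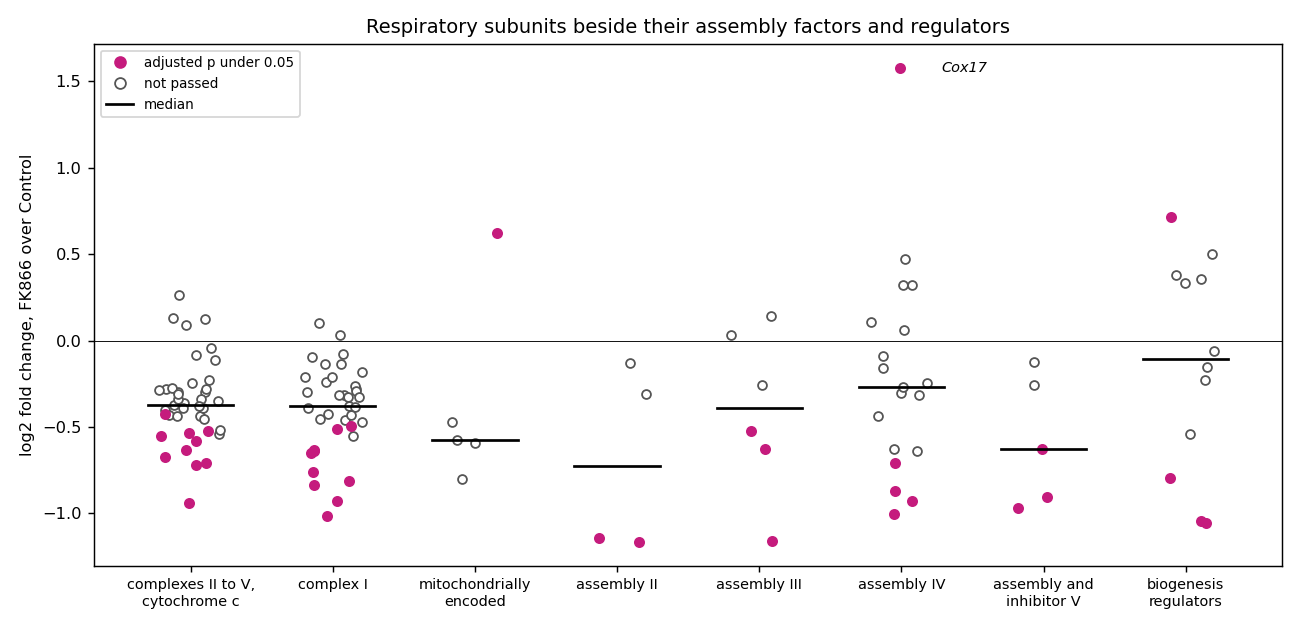
Log2 fold change (FK866 over Control) of tested genes in the 41 abundant members, complex I, mitochondrially encoded partners, assembly factors of each complex and regulators of mitochondrial biogenesis. Filled points had an edgeR adjusted p under 0.05, open points did not, and bars are medians; Cox17, at 1.58, stands above all other points.

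Among 12 regulators of mitochondrial gene expression, 3 fell and 1 rose, beside 7.89% and 5.31% of all tested genes. Most of the 12 were abundant genes, of which 15.3% were called lower. The nuclear receptor gene Esrra, whose product drives respiratory genes with PGC-1 coactivators, had 9.53 and 6.65 CPM in FK866 and 19.0 and 14.3 CPM in Control (log2 -1.04, edgeR adjusted p = 0.0366). The methyltransferase-family genes Tfb1m (-1.05) and Tfb2m (-0.80) of mitochondrial ribosome assembly and transcription fell as well, and the corepressor gene Nrip1 rose (0.72, edgeR adjusted p = 0.0203). With the trend removed, Tfb2m alone of these 4 was called (edgeR adjusted p = 0.0464), while Esrra was at -0.87 (0.0754), Tfb1m at -0.84 (0.0681) and Nrip1 at 0.44 (0.112). The calls of Esrra and Tfb2m were also lost without FK866 replicate 2, that of Tfb2m without Control replicate 2, and those of Tfb1m and Nrip1 without FK866 replicate 1. The factors best known for binding the promoters of respiratory genes did not pass: Nrf1 was at -0.06 (edgeR adjusted p = 0.872), Gabpa at -0.15 (0.589) and Yy1 at 0.38 (0.230). Nor did the genes of the PGC-1 family. Ppargc1a was near the floor, with means of 0.97 CPM in FK866 and 0.69 CPM in Control (log2 0.50, edgeR adjusted p = 0.761). Ppargc1b was at -0.54 (0.292) and Pprc1 at 0.36 (0.15).

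Promoters of the members are shown for the called genes with the lowest adjusted p in complexes III and V and for cytochrome c, with Atp5b as a contrast, because subunit genes of this kind share binding motifs for a small set of factors. RefSeq windows (GRCm38.p6, 300 bases around the start, most of them upstream) were found for 37 of the 49 symbols, with 40 windows in all. The ETS-type motif CCGGAAG, bound by GABPA, was found on either strand in 30.0% of member windows and 8.86% of all 32851 windows. The long NRF1 palindrome was in 25.0% against 4.60%, and the core CGCATGCG, added after the sequences had been read and able to overlap the long form, in 8 of 40 against 1.87%. The YY1 motif AANATGGC was in 12.5% against 6.05%, and CCAAT in 55.0% against 37.4%. Capitals mark matches to any of these letters on either strand, with overlaps merged.
Uqcr11 (chr10:80406772-80407071, minus strand): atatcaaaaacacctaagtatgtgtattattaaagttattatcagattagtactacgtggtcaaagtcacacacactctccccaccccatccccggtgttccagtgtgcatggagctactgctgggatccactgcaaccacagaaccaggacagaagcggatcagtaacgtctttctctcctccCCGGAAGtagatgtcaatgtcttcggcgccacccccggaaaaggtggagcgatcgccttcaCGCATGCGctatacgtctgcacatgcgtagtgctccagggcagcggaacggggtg
Cycs (chr6:50566520-50566819, minus strand): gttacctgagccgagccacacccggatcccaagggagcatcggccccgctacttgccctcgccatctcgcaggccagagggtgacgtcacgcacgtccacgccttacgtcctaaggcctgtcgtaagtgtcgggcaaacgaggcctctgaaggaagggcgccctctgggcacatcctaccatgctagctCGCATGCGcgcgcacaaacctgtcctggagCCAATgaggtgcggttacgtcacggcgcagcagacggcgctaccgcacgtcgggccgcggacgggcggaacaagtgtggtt
Atp5j (chr16:84834927-84835226, minus strand, 1 of 2 listed windows): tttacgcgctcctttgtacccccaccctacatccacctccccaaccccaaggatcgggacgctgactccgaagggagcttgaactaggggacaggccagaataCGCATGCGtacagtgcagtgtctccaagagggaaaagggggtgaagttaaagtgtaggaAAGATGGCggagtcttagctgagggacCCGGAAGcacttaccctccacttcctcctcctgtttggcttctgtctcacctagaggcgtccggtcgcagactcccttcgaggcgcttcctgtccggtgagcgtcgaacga
Atp5b (chr10:128083057-128083356, plus strand): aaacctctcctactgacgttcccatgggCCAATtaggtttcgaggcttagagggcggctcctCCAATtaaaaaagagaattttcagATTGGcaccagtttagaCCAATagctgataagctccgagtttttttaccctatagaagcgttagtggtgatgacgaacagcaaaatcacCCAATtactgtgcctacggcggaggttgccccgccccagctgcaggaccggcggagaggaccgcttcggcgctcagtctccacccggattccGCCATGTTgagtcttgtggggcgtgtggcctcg
The Uqcr11, Cycs and Atp5j windows shown above each held 1 CGCATGCG, and those of Uqcr11 and Atp5j also held 1 CCGGAAG. The Cycs window further held 1 CCAAT and the Atp5j window shown 1 AANATGGC. The other listed Atp5j window (chromosome 16, 84835576 to 84835875) had no match to any of the 5 motifs, so the matches of Atp5j depend on the window chosen. The Atp5b window held no CGCATGCG and no CCGGAAG, and carried 5 CCAAT matches and 1 AANATGGC. The window of Cox7a2, called in complex IV, had no match to any of the 5 motifs. CGCATGCG also lay in windows of the called Atp5k and Uqcrc1 and of the uncalled Atp5g2, Atp5l and Cox6a1. It was absent from those of the called Sdhb, Uqcr10 and Atp5j2. The Atp5j window shown begins just inside Gabpa, which starts at position 84834925 of chromosome 16 on the plus strand. The called Atp5j and the uncalled Gabpa thus run in opposite directions from the same stretch. Of the exon bases of Atp5j, 12.7% are shared with Gabpa. A match describes letters in these windows and says nothing about binding in these cells.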

How the data were processed

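RNA-seq libraries of 2 FK866 and 2 Control samples were made with the SMART-Seq HT and Nextera XT kits, per the labels' protocols. Reads were trimmed with cutadapt 1.9 and aligned with HISAT2 2.2.1 to mm10, per the submitters' processing notes; the counting program is not given in the sources used here. The deposited values are raw counts per gene ID, not normalized by the authors. Symbols, positions and transcript lengths came from GENCODE M21, which matched 55141 of 55487 IDs. Genes that passed edgeR's filterByExpr (count 10, total 15) were tested with edgeR 4.0.16 (R 4.3.3, quasi-likelihood F test, TMM scaling after filtering, no block), with Benjamini-Hochberg adjustment over all tested genes; the script was tested on simulated data. CPM used the scaled filtered library size, and each SE was derived from the F statistic as the size of the log2 fold change over its root. Replicates of a group differed beyond counting noise, so each library was kept as 1 sample. Alternatives included other scalings, filters, DESeq2 1.42.0, a replicate block, leaving out each library, and removal of a trend with length and GC content. Copies were annotated transcripts of other genes at 95% identity or more over at least 150 nt. Full values were given by rule for called members, the 2 most abundant tested members of each complex, Cycs and Cyc1, with alternative isoforms by level and up to 3 examples from each other list; further members and the uncalled list genes were named after their values were seen. Members, gene lists and tests were chosen with earlier results of these data known.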

Additional observations from a re-analysis of the deposited data

How the results depend on the processing

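Members called lower numbered 10, and became 5 with no filter, 16 with DESeq2, 2 once the trend with length and GC was removed, 6 of 30 (20%, against 21.7% of the 46) without members that have near-identical copies, and 1 to 29 as each library was left out; 0 were called higher in any fit. Their median log2 fold change of -0.37 became -0.14 with the trend removed and ran from -0.526 to -0.310 over the left-out libraries. Genes called in all numbered 2534, and 1727 to 3726 over the left-out libraries. For complex II the count of 1 became 0 with RLE scaling, with no filter and with the trend removed (0 to 2 over left-out libraries), and its median of -0.30 became -0.27 with RLE scaling, -0.25 with library totals, -0.27 with upper quartile scaling, -0.33 with full library totals before TMM, -0.35 with no filter, -0.20 with a stricter filter, -0.22 with the trend removed and -0.31 with DESeq2 (-0.401 to -0.272). For complex III the count of 3 became 0 with the trend removed and 1 without copies (0 to 6), and the median -0.27 with the stricter filter and -0.13 with the trend removed (-0.526 to -0.330). For complex IV the count of 1 became 4 with full library totals, 2 with the stricter filter, 0 with the trend removed and 4 with DESeq2 (0 to 8), and the median 0.0046 with the trend removed (-0.515 to -0.270). For complex V the count of 4 became 2 with no filter and 1 with the trend removed (1 to 12), and the median -0.18 with the trend removed (-0.543 to -0.317). Full library totals were added after the data were seen. The cause of these changes was not tested.

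With the replicate number as a block, 5256 genes were called, 15.9% of tested genes and 30 members lower, and 2, 7, 9 and 11 genes of complexes II, III, IV and V. Deviations of same-numbered libraries from their group means correlated at 0.533. No label ties the numbers to a batch, and with 2 pairs it was not tested whether same-numbered libraries are true pairs.

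Single genes changed sign with the trend removed in Sdhd (0.129), Uqcrh (0.044), Cox8a (0.018), Cox6a1 (0.070), Cox6c (0.0046), Cox4i1 (0.214), Atp5d (0.015), Atp5e (0.042) and Atp5c1 (0.188), with the stricter filter in Sdhd (0.014) and Atp5c1 (0.052), and with library totals in Atp5c1 (0.0079). Over the left-out libraries Uqcrc2 ran from -0.121 to 0.223, Cox7c from -1.01 to 0.018, Atp5g2 from -0.046 (-0.044 without Control replicate 1) to 0.235 and Atp5c1 up to 0.035. Of 533 single-gene values, 428 kept direction and side of the threshold, 56 newly passed, 32 no longer passed and 17 changed sign. The median of all genes was 0.03, but 0.24 with no filter, 0.28 with DESeq2 and 0.19 without Control replicate 2, so fold changes there are relative to that shift. With 2 libraries a group, precision is limited by their number rather than by depth for the abundant members.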
